A study of Homo sapiens with 6 samples.

Results

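Translesion synthesis lets a cell copy past DNA that stops its normal replication enzymes. Specialised polymerases take over at the stalled fork, and they are called in when the sliding clamp PCNA carries ubiquitin. A single ubiquitin, attached by RAD18 with its partner RAD6, favours the translesion polymerases, whereas a ubiquitin chain built with the help of HLTF and SHPRH favours template switching. USP1 takes ubiquitin off again. DNA folded into a G quadruplex, a stack of guanine tetrads, is a known obstacle of this kind, and REV1 is known from chicken cells for helping replication through it.

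The members are the 9 genes REV1, REV3L, POLH, POLI, POLK, RAD18, HLTF, SHPRH and USP1, chosen by name for this role. All 9 were among the 22925 genes of the deposited table, matched by symbol. Each was read by at least 134 reads in every library, and all 9 passed the filter on low values. The cells were HT-1080, an established human fibrosarcoma line, and their poly(A) RNA was sequenced. The PhenDC3 group was kept for 48 h in 20 μM PhenDC3, a ligand of G quadruplexes, with 1% DMSO as solvent. The DMSO group had 1% DMSO alone for 48 h, so both groups carried the solvent. Each group had 3 libraries, and the labels do not tie them to separate cultures. The p-values therefore reflect the spread among these libraries alone, which could be technical.

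Values are normalized read counts, that is reads per gene divided by the authors' size factor of each library. The libraries held 7371056 to 9386691 reads with PhenDC3 and 12574952 to 14292987 with DMSO. Changes were tested with limma on log2(value + 1), and a gene is called higher or lower at an adjusted p under 0.05. DMSO replicate 3 stood apart from the other DMSO libraries, since the chi-square of its counts over genes, divided by the degrees of freedom, was 6.47 and 6.99 against them and 1.40 to 2.50 for other pairs of replicates. Long transcripts were low in it. Among genes with a mean of 100 or more, its log2 value was a median 0.23 below the mean of the other DMSO libraries for transcripts of 7000 bases or more and 0.17 above it for those under 2000 bases. In these genes the median log2 fold change of PhenDC3 over DMSO also differed by length. It was -0.20 for transcripts under 2000 bases and 0.10 for those of 7000 bases or more. Without DMSO replicate 3 these medians were -0.14 and 0.02. The part of length in the changes of the members was not tested. Of 6 mesenchymal markers, VIM, FN1 and CDH2 were abundant but lower with PhenDC3 (limma fold 0.543, 0.623 and 0.564), COL1A1 was higher at 83.2 normalized counts in PhenDC3 and 53.9 in DMSO, and COL1A2 and THY1 were at 5.43 or less in either group's mean and not tested. Their summed level was 19816 to 20005 in the PhenDC3 libraries and 33775 to 37130 in the DMSO libraries. Of 6 epithelial markers, KRT8 averaged 1366 and 1190 normalized counts in PhenDC3 and DMSO and was called higher, as was ELF3 at 10.6 and 0.259. KRT18 at 1125 and 1257 and CLDN4 at 68.5 and 66.8 were not called, EPCAM and CDH1 were not analysed here, and the summed level was 2438 to 2684 in PhenDC3 and 2279 to 2801 in DMSO. The part of these markers in the results was not tested.

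Because PhenDC3 binds G quadruplexes, the 250 bases before each gene's start were searched for the letters that can form one. The sequences are RefSeq's, on GRCh38.p14, while the authors' build was hg19, and all 9 genes had an entry, 11 start sites in all. The motif was 4 runs of GGG or longer with 1 to 7 bases N between them, on either strand, and 23.5% of the 35116 promoter windows in the RefSeq set held it. It was found in 4 of the 9 genes, where a gene counts if any of its windows held it, whereas the percentage is of single windows. REV1 and POLH held it on the strand of the gene and POLK and REV3L on the opposite strand, where it reads as runs of C. REV1, POLH and POLK are printed because they were called and moved in different directions. Capitals mark the match, with overlapping matches joined, and the last base printed is the one before the start site. REV1 lies on the minus strand at chr2:99490018-99490267, POLH on the plus strand at chr6:43575935-43576184 and POLK on the plus strand at chr5:75511641-75511890.
REV1: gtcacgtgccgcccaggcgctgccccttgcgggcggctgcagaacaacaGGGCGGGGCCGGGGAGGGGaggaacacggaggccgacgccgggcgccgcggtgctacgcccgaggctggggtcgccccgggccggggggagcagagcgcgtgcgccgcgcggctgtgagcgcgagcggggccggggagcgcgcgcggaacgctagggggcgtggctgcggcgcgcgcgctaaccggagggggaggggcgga
POLH: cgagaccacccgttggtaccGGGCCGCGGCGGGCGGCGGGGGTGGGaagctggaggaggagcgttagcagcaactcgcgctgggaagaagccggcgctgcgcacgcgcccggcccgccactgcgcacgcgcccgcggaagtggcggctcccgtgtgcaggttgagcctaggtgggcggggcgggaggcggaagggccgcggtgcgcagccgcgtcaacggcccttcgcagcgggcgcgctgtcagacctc
POLK: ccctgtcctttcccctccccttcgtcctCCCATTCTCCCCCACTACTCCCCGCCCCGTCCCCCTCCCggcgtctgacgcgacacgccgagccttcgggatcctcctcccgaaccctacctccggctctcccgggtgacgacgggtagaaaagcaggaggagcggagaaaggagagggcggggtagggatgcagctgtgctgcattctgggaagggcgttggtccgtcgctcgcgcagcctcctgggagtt

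No such match was found in the windows of HLTF, USP1, RAD18, SHPRH or POLI, which says only that these letters are not there. The matches thus stood before REV1 and POLK, which were called higher, before POLH, which was called lower, and before REV3L, which was not called. GC content in the 11 windows ran from 56.8% for RAD18 to 80.8% for REV1, against a median of 58% over all promoter windows.

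Motifs of other regulators were sought in the same windows on both strands. The E2F letters TTTGGCGC or TTTCCCGC, described for genes of S phase, stood before 3 of the 9 genes, HLTF, POLI and REV3L, and in 1.93% of all promoter windows. They did not overlap the G quadruplex match of REV3L. HLTF is printed as the called gene among them, from the minus strand at chr3:149086534-149086783, with the E2F letters in capitals.
HLTF: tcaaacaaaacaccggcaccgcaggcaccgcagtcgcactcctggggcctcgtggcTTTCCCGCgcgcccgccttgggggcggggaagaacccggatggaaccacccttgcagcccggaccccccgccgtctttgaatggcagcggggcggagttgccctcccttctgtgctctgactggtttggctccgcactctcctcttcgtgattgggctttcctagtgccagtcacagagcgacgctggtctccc
The antioxidant response element TGACNNNGC was found before POLH and REV3L and in 10.9% of all windows, and the cell cycle motif TTTGAA before HLTF and USP1 and in 13.3%. These counts too are of genes with a match in any window, and the percentages are of single windows. REV3L and USP1 had 2 windows each. The E2F letters of REV3L and the TTTGAA of USP1 stood in only 1 of them. A match is a run of letters and not a known site.

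Of the 9 genes, 2 were called higher with PhenDC3 and 3 lower. REV1 and POLK were the higher ones, and POLH, HLTF and USP1 the lower ones. Over all 16482 genes tested, 59.6% were called, 29.2% higher and 30.4% lower, so a share of 5 in 9 is near that background. The same 5 genes were those without overlap between the groups, which held for 64.1% of all genes tested. The authors' deposited table called 39.0% of the genes with a value. Other settings called 63.0% (edgeR), 58.0% (without DMSO replicate 3, 28.5% higher and 29.5% lower) and 61.6% (replicate number as a block). Scaling to library totals called 61.7%, of which more were lower (40.1% of the genes tested) than higher (21.6%). The median log2 fold change of the 9 genes was -0.14, against -0.02 over all genes tested. POLH, with the largest change of the 9 genes, changed by more than 70.7% of the tested genes did in either direction. That share was 67.2% for REV1, 66.7% for USP1 and 57.5% for HLTF. For the other members it ran from 34.2% for POLK down to 2.82% for RAD18. In bulk RNA, fewer cells that transcribe a gene and less of its RNA per cell cannot be told apart.

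**Figure D1:**
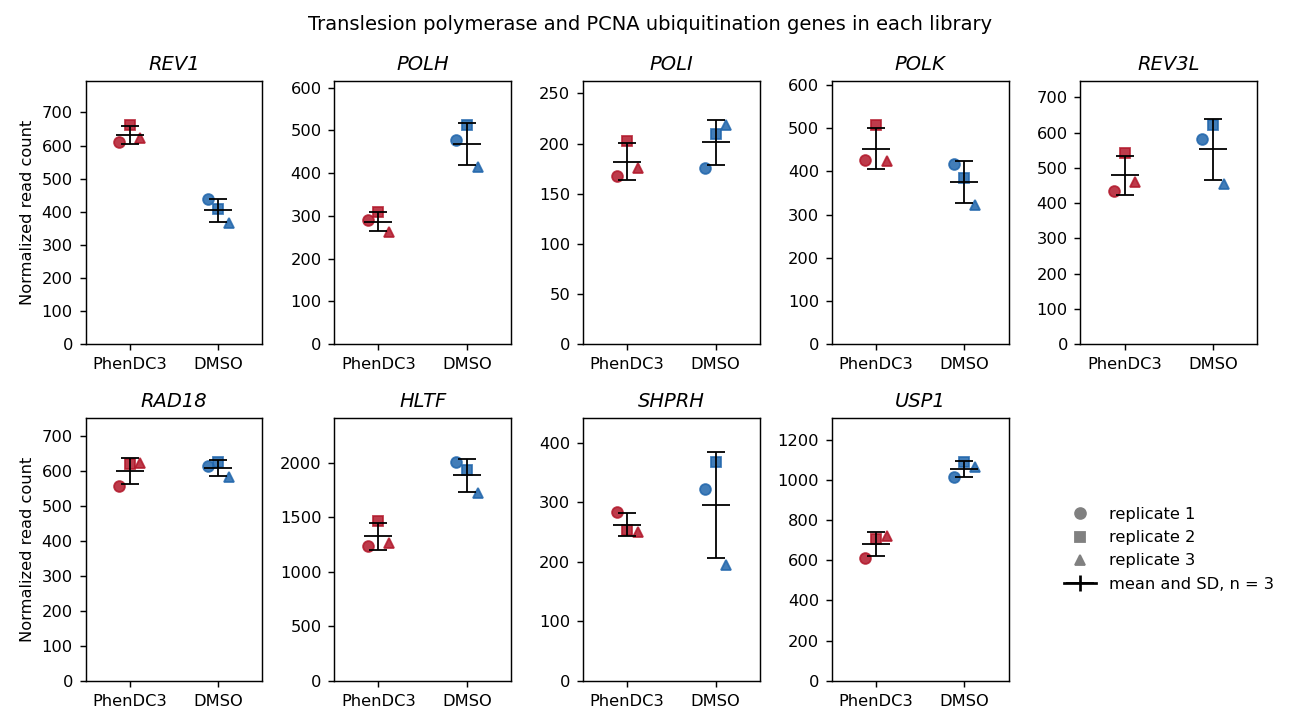
Normalized read counts (vertical axes, from 0) of the 9 genes in each PhenDC3 and DMSO library, with the mean and SD of 3 libraries. REV1 lay at 609 to 662 in PhenDC3 and 368 to 437 in DMSO, while RAD18 overlapped between the groups and SHPRH was lowest in DMSO replicate 3.

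REV1 belongs to the Y family of polymerases. It inserts C and, more than the others, serves as the platform on which the other translesion polymerases assemble. REV1 (ENSG00000135945, chromosome 2) had 609, 662 and 622 normalized counts in PhenDC3 replicates 1 to 3 and 437, 408 and 368 in DMSO replicates 1 to 3. Every PhenDC3 library was above every DMSO library. REV1 rose 1.56-fold (95% interval 1.39 to 1.76; log2 fold change 0.64 with SE 0.08 and adjusted p = 1.22e-06 in limma). Of its 7769 exonic bases in GENCODE 29, 852 are shared with exons of EIF5B on the other strand, and no source used here says whether the counting kept strands apart. EIF5B averaged 2409 normalized counts in PhenDC3 and 2842 in DMSO, and its part in the REV1 counts was not tested.

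POLH, or polymerase eta, copies accurately past ultraviolet damage, and its loss causes the variant form of xeroderma pigmentosum. POLH (ENSG00000170734, chromosome 6) had 290, 308 and 262 normalized counts in PhenDC3 replicates 1 to 3 and 476, 513 and 414 in DMSO replicates 1 to 3. The groups did not overlap, and PhenDC3 was the lower. POLH fell to 0.615 of its DMSO level (95% interval 0.536 to 0.706, log2 fold change -0.70 with SE 0.09 and adjusted p = 2.45e-06 in limma).

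POLK, or polymerase kappa, bypasses bulky adducts in the minor groove and extends from mispaired ends. POLK (ENSG00000122008, chromosome 5) had 427, 508 and 424 normalized counts in PhenDC3 replicates 1 to 3 and 417, 386 and 322 in DMSO replicates 1 to 3. The groups did not overlap, but PhenDC3 replicates 1 and 3 lay close to DMSO replicate 1. POLK was called higher at 1.21-fold (95% interval 1.05 to 1.40, log2 fold change 0.27 with SE 0.10 and adjusted p = 0.0232 in limma). The call was lost without DMSO replicate 3 (limma adjusted p = 0.102), without PhenDC3 replicate 2 (adjusted p = 0.141), with library totals as the scale (log2 fold change 0.11, adjusted p = 0.361) and in the authors' deposited table (adjusted p = 0.0601). POLK also shares 230 of 9105 exonic bases with COL4A3BP on the other strand, which averaged 627 normalized counts in PhenDC3 and 475 in DMSO.

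POLI, or polymerase iota, is the most error-prone of the Y family. POLI (ENSG00000101751, chromosome 18) had 168, 202 and 176 normalized counts in PhenDC3 and 176, 210 and 219 in DMSO, and the groups overlapped. Its fold change of 0.906 had an interval of 0.770 to 1.07 (limma adjusted p = 0.287). REV3L (ENSG00000009413, chromosome 6) encodes the catalytic subunit of polymerase zeta, the B family enzyme that extends DNA after another polymerase has inserted a base. It had 436, 542 and 461 normalized counts in PhenDC3 and 581, 622 and 455 in DMSO, where replicate 3 was low enough to overlap. REV3L was at 0.871 of its DMSO level with an interval of 0.748 to 1.01 and was not called (limma log2 fold change -0.20, adjusted p = 0.110). It was called lower without DMSO replicate 3 (log2 fold change -0.33, adjusted p = 0.00182) and without PhenDC3 replicate 2 (-0.29, adjusted p = 0.0379).

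With the authors' size factors, the summed level of these 5 polymerase genes was close between the groups, while their proportions differed. Per kilobase of the longest coding transcript in GENCODE 29, their normalized counts summed to 350, 395 and 347 in PhenDC3 replicates 1 to 3 and 379, 387 and 326 in DMSO replicates 1 to 3. The sums averaged 364 ± 26.8 in PhenDC3 and 364 ± 33.1 in DMSO (SD, n = 3 each). REV1 made up 36.6% ± 1.19 of the sum in PhenDC3 and 23.4% ± 1.08 in DMSO. POLH made up 22.3% ± 1.06 in PhenDC3 and 36.3% ± 1.01 in DMSO. With these lengths REV1 was the largest share in each PhenDC3 library and POLH in each DMSO library. POLK held 20.6 to 21.7% in PhenDC3 and 16.7 to 18.6% in DMSO. REV3L and POLI took the smallest shares in either group, REV3L with 11.4 to 12.5% in PhenDC3 and 12.8 to 14.7% in DMSO, and POLI with 7.84 to 8.36% and 7.57 to 10.9%. Shares within a library do not depend on the size factors, but they do depend on the lengths used. The sums depend on both. Scaling to library totals lowered the log2 fold change of REV1 from 0.64 to 0.48 and of POLH from -0.70 to -0.87. Per kilobase of all exons joined, REV1 and POLH were level in PhenDC3, at 30.2% ± 1.07 and 30.0% ± 1.32, and POLH was the larger in PhenDC3 replicates 1 and 2. In DMSO they were then at 17.9% ± 0.940 and 45.4% ± 0.964, so the REV1 share was still higher and the POLH share lower with PhenDC3 without overlap. The sum on that scale was 269.8 ± 20.2 in PhenDC3 and 291 ± 27.9 in DMSO. On either scale the shares come from the same counts as the changes of the single genes. They add no separate support for those changes.

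**Figure D2:**
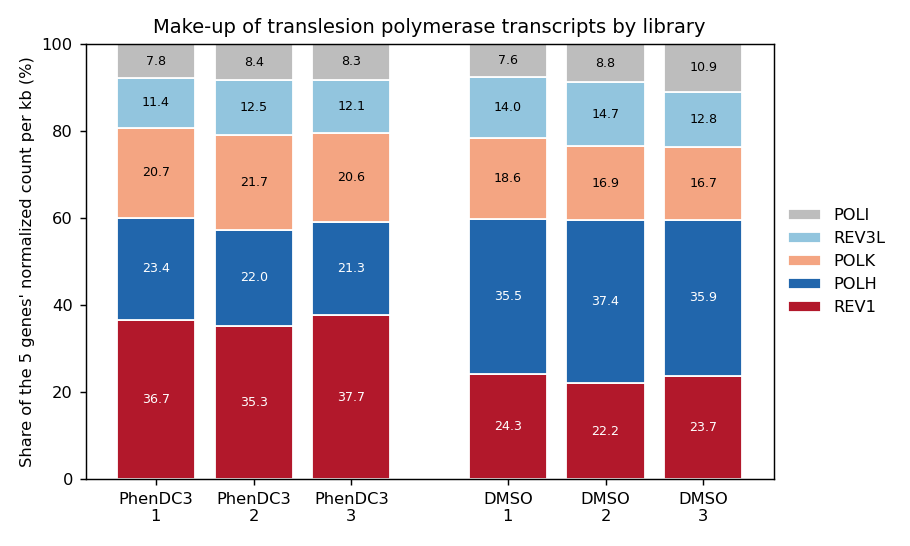
Share of each polymerase gene (vertical axis, percent) in the summed normalized count per kilobase of REV1, POLH, POLK, REV3L and POLI, with a bar for each library. REV1 took 35.3 to 37.7% in the PhenDC3 libraries and 22.2 to 24.3% in the DMSO libraries, and POLH 21.3 to 23.4% and 35.5 to 37.4%.

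RAD18 is the ubiquitin ligase that starts the pathway by marking PCNA. RAD18 (ENSG00000070950, chromosome 3) had 557, 621 and 622 normalized counts in PhenDC3 and 614, 627 and 583 in DMSO. The groups overlapped, and the fold change of 0.986 had an interval of 0.883 to 1.10, the narrowest of the genes not called (limma adjusted p = 0.832). The RAD6 enzymes that work with it are encoded by UBE2A and UBE2B, and both rose. UBE2A had 904, 996 and 943 normalized counts in PhenDC3 and 721, 704 and 787 in DMSO (1.29-fold, limma adjusted p = 0.000233); it shares 956 exonic bases with NKRF on the other strand, which averaged 318 in PhenDC3 and 348 in DMSO. UBE2B had 767, 789 and 841 in PhenDC3 and 511, 524 and 600 in DMSO (1.47-fold, limma adjusted p = 4.81e-06). No library of either gene overlapped between the groups.

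HLTF and SHPRH, both related to yeast Rad5, are ligases that extend the ubiquitin chain on PCNA, and HLTF also remodels stalled forks. HLTF (ENSG00000071794, chromosome 3) had 1238, 1468 and 1267 normalized counts in PhenDC3 replicates 1 to 3 and 2009, 1929 and 1718 in DMSO replicates 1 to 3. All PhenDC3 libraries were below all DMSO libraries. HLTF fell to 0.702 of its DMSO level (95% interval 0.629 to 0.784, log2 fold change -0.51 with SE 0.08 and adjusted p = 8.34e-06 in limma). SHPRH (ENSG00000146414, chromosome 6) had 284, 253 and 249 normalized counts in PhenDC3 and 322, 368 and 195 in DMSO. DMSO replicate 3 was the lowest of the 6 libraries and the other DMSO libraries were the highest, which gave SHPRH the widest interval of the 9 genes, 0.734 to 1.15 (limma log2 fold change -0.12, adjusted p = 0.514). Without DMSO replicate 3 it was called lower (log2 fold change -0.39, adjusted p = 0.00112). In that library SHPRH was 0.82 below the mean of the other DMSO libraries on the log2 scale, REV3L 0.40, POLK 0.32 and POLH 0.25. REV1 and HLTF were each 0.20 below that mean and RAD18 0.09, while POLI was 0.19 above it and USP1 0.02. The part of transcript length in these differences was not tested.

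The chain is built by the pair of UBE2N, known as UBC13, and UBE2V2, known as MMS2. UBE2N fell to 0.658 of its DMSO level, with 936, 1066 and 1065 normalized counts in PhenDC3 and 1501, 1517 and 1636 in DMSO (limma adjusted p = 3.59e-07). It shares 39.5% of its exonic bases with NUDT4 on the other strand, which averaged 215 normalized counts in PhenDC3 and 182 in DMSO. UBE2V2 was not called, at 869 ± 33.5 and 965 ± 49.6 normalized counts in PhenDC3 and DMSO (limma adjusted p = 0.0712).

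USP1 removes ubiquitin from PCNA, and from FANCD2 in crosslink repair, but is active only when bound to WDR48, also called UAF1. USP1 (ENSG00000162607, chromosome 1) had 611, 707 and 722 normalized counts in PhenDC3 replicates 1 to 3 and 1012, 1090 and 1063 in DMSO replicates 1 to 3. The groups were far apart relative to their spread. USP1 fell to 0.643 of its DMSO level (95% interval 0.576 to 0.718, log2 fold change -0.64 with SE 0.08 and adjusted p = 4.77e-07 in limma). WDR48 went the other way, with 633, 738 and 695 normalized counts in PhenDC3 and 516, 527 and 494 in DMSO (1.34-fold, limma adjusted p = 9.43e-05).

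Ratios of counts within a library are free of the scaling between libraries. They compare a pair of genes between the groups and say nothing of which transcript is more abundant, since lengths differ. The ratio of USP1 to WDR48 was 0.964, 0.958 and 1.04 in PhenDC3 and 1.96, 2.07 and 2.15 in DMSO. RAD18 to USP1 was 0.884 ± 0.0261 in PhenDC3 and 0.577 ± 0.0290 in DMSO (SD, n = 3 each). REV1 to REV3L was 1.32 ± 0.0913 in PhenDC3 and 0.739 ± 0.0763 in DMSO. POLK to POLH was 1.58 ± 0.0925 in PhenDC3 and 0.802 ± 0.0652 in DMSO, and REV1 to USP1 was 0.932 ± 0.0682 and 0.384 ± 0.0440. These 5 ratios did not overlap between the groups, whereas HLTF to SHPRH did, at 5.08 ± 0.721 in PhenDC3 and 6.76 ± 1.84 in DMSO. An exact two-sided permutation test gave p = 0.1 for each of the 5, the smallest that 3 against 3 libraries allow, and 0.2 for HLTF to SHPRH (adjusted over the 6 ratios, 0.12 and 0.2). For all 5 the lack of overlap and this smallest p were fixed in advance by the ranges of the single genes. In USP1 to WDR48, POLK to POLH and REV1 to USP1 the genes of each pair moved in opposite directions without overlap. In REV1 to REV3L and RAD18 to USP1 no matching of the libraries within a group could have made the ratios overlap. The 5 ratios therefore add no separate support. The 6 pairs were not among the comparisons planned beforehand.

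**Figure D3:**
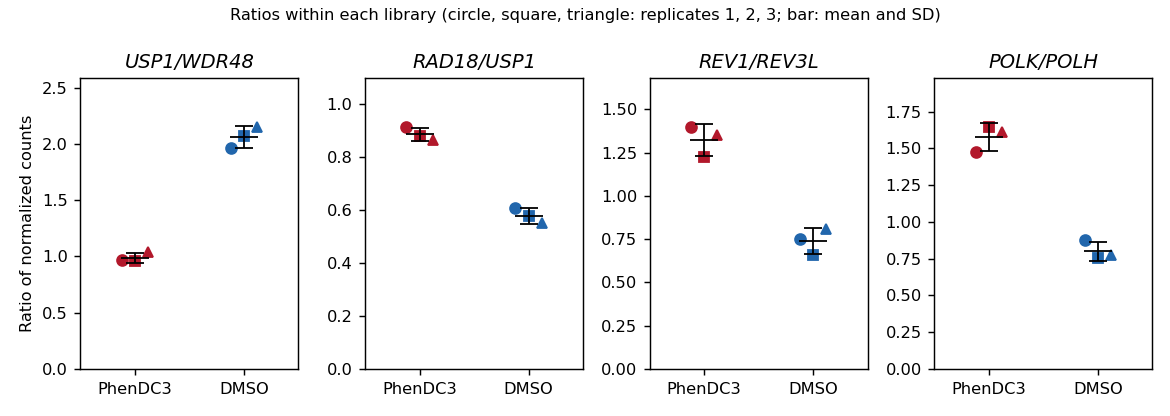
Ratio of normalized counts (vertical axes, from 0) for 4 pairs of genes in each PhenDC3 and DMSO library, with the mean and SD of 3 libraries. USP1 to WDR48 was 0.958 to 1.04 in PhenDC3 and 1.96 to 2.15 in DMSO, and none of the 4 ratios overlapped between the groups.

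Per kilobase of the longest coding transcript, HLTF had the highest level of the 9 genes, at 249 ± 23.5 normalized counts in PhenDC3 and 355 ± 28.3 in DMSO. USP1 followed at 170 ± 15.1 and 264 ± 9.97. In PhenDC3 the order went on with REV1 at 133, RAD18 at 102, POLH at 81.0, POLK at 76.6, REV3L at 43.8, SHPRH at 35.7 and POLI at 29.7, and of these neighbours only POLH and POLK overlapped between libraries. In DMSO it went on with POLH at 132, RAD18 at 103, REV1 at 85.1, POLK at 63.4, REV3L at 50.5, SHPRH at 40.2 and POLI at 32.8, and each neighbouring pair from POLK down overlapped. Parts of this order changed with the length of all exons joined. RAD18 then stood above REV1 in PhenDC3, with REV1 and POLH level at 81.3 and 81.0, REV3L stood above POLK in DMSO, and POLI stood above SHPRH in both groups.

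**Figure D4:**
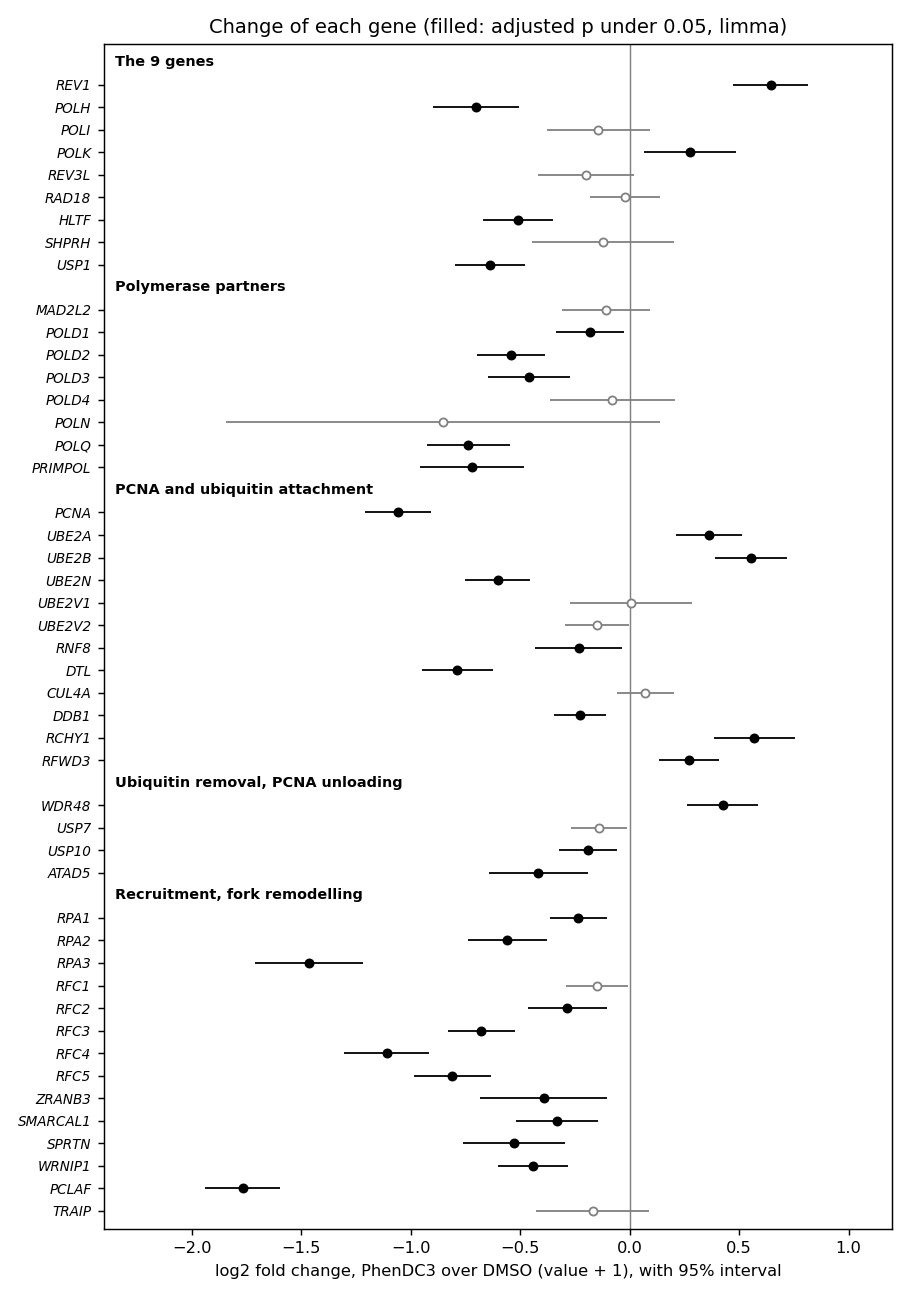
log2 fold change of PhenDC3 over DMSO (horizontal axis, value + 1) with its 95% interval for the 9 genes and for 38 other genes of the pathway, filled where the adjusted p was under 0.05 in limma. REV1 (0.64) lies right of 0, POLH (-0.70), USP1 (-0.64) and HLTF (-0.51) left of it, and PCLAF (-1.77) farthest left.

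The other genes of the pathway are given from lists written from general knowledge. Among the partners of the polymerases 5 of 8 were lower and none was higher in limma, with a median log2 fold change of -0.50. Over all genes tested 30.4% were lower and 29.2% higher. POLD2 and POLD3, which polymerase zeta shares with polymerase delta, fell to 0.688 and 0.727 of their DMSO mean (limma adjusted p = 2.73e-06 and 0.000175), while POLD1, the catalytic subunit of polymerase delta, was called at 0.881 (limma adjusted p = 0.0398). The POLD1 call was lost in 11 of 21 alternatives, among them the authors' deposited table (adjusted p = 0.0915) and the fits without PhenDC3 replicate 2 (0.127), PhenDC3 replicate 3 (0.110), DMSO replicate 2 (0.0621) or DMSO replicate 3 (0.103). MAD2L2, or REV7, which links REV1 to REV3L, had 298 ± 25.6 and 322 ± 31.0 normalized counts in PhenDC3 and DMSO and was not called (limma adjusted p = 0.357). POLQ, which joins broken ends, fell to 0.596 of its DMSO mean and PRIMPOL, which restarts synthesis beyond a block, to 0.608. PRIMPOL shares 346 exonic bases with CENPU on the other strand, which averaged 297 normalized counts in PhenDC3 and 445 in DMSO.

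Of PCNA and the genes that attach ubiquitin to it or act with them, 4 of 12 were higher and 5 lower, with a median log2 fold change of -0.07, beside 29.2% higher and 30.4% lower over all genes tested. Of the lower ones RNF8, a ligase of the damage response (limma adjusted p = 0.0412), lost its call in 10 of 21 alternatives, among them the authors' deposited table (adjusted p = 0.127) and the fits without PhenDC3 replicate 1 (0.0897), PhenDC3 replicate 3 (0.214), DMSO replicate 1 (0.0811) or DMSO replicate 2 (0.0989). PCNA itself, the substrate of the pathway, had 1181, 1213 and 1292 normalized counts in PhenDC3 and 2312, 2594 and 2787 in DMSO. It fell to 0.480 of its DMSO level (95% interval 0.433 to 0.533, limma log2 fold change -1.06, adjusted p = 1.22e-10). DTL, the adaptor of another ligase that acts on PCNA-bound proteins, fell to 0.580 of its DMSO mean. RCHY1 and RFWD3, both ligases, were 1.49 and 1.21 times their DMSO mean. Of the genes for removal of ubiquitin and unloading of PCNA, WDR48 rose as above and ATAD5, which unloads PCNA and brings USP1 to it, fell to 0.754 (limma adjusted p = 0.00243). USP10 was called lower at 0.877 (adjusted p = 0.0155), but not without PhenDC3 replicate 3 (0.0739) or DMSO replicate 1 (0.0760), and USP7 was not called.

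In the list for recruitment and fork remodelling 12 of 14 genes were lower and none higher, with a median log2 fold change of -0.48. Over all genes tested 30.4% were lower and 29.2% higher. PCLAF, a small PCNA-binding protein, fell to 0.293 of its DMSO mean, and RPA3 and RFC4, parts of the single-strand binding complex and of the clamp loader, to 0.361 and 0.461. RFC1 and TRAIP were not called. In the list for S phase and proliferation 19 of 20 were lower and only CCNE1 was higher, with a median of -0.92. The shares over all genes tested are the same as for the previous list. RRM2 fell to 0.323 of its DMSO mean, TOP2A to 0.392 and CCNA2 to 0.436. These genes moved with the falls of POLH, HLTF and USP1, and their part in those falls was not tested.

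The genes whose level ran most like that of each member over the 6 libraries were sought among 9621 others with a mean of 100 or more, by the root mean square difference of centred log2 values. AGO3 lay nearest to REV1 (0.026), SP4 to POLH (0.032), SYNE1 to POLK (0.039), MRPS7 to POLI (0.030) and CHML to REV3L (0.039). CDC23 lay nearest to RAD18 (0.016), B4GALT6 to HLTF (0.031), INSIG2 to USP1 (0.037) and C1RL-AS1 to SHPRH (0.083), the least close match of the 9.

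**Figure D5:**
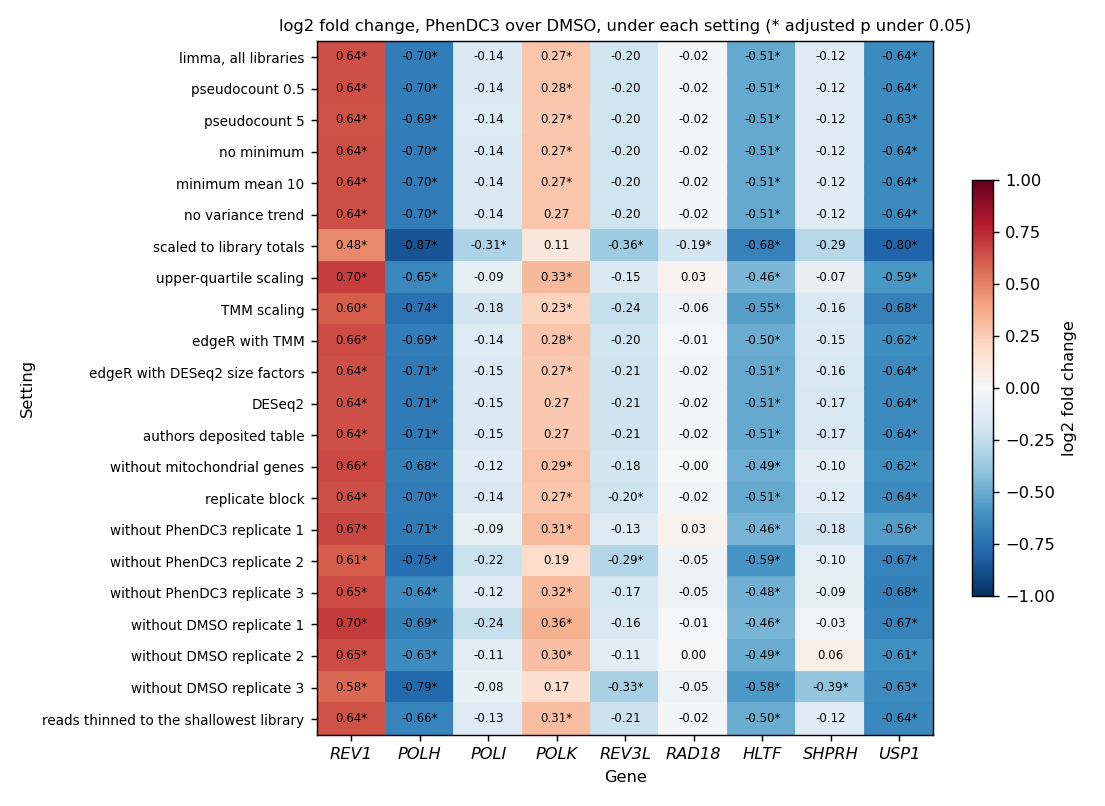
log2 fold change of PhenDC3 over DMSO for each of the 9 genes (columns) under each setting (rows), coloured from blue for lower to red for higher, with an asterisk where the adjusted p was under 0.05. REV1 stays between 0.48 and 0.70, POLH between -0.87 and -0.63, HLTF between -0.68 and -0.46 and USP1 between -0.80 and -0.56, each with an asterisk in all rows.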

How the data were processed

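Poly(A) RNA of 3 PhenDC3 and 3 DMSO libraries of HT-1080 cells was compared. TRIzol served for RNA extraction and a kit that keeps strand information for the libraries, per the labels' protocols. Per the submitters' processing notes, the build was hg19 and the tools, listed without roles, included STAR 2.7, featureCounts and DESeq2 1.18.1 beside TopHat2 2.0.11 and Cufflinks 2.2.1. Which annotation and strand setting the counting used is not stated in them. The signal the authors deposited is a normalized read count. Within a library, 100% of values were whole multiples of what 1 read is worth, to a relative tolerance of 1e-06, and so the reads and each library's size factor could be recovered. The deposited log2 fold change and adjusted p-value are the authors' own, of PhenDC3 over DMSO per the file headers.

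Since these are normalized values, genes were tested with limma 3.58.1 (R 4.3.3) on log2(value + 1) with a variance trend and no replicate block, on the 16482 genes with a mean of 5 or more, with Benjamini-Hochberg adjustment over all of them. Adding 1 understates changes where values are low. edgeR 4.0.16 called 9437 and DESeq2 1.42.0 called 8418 genes on the recovered reads. In all, 21 alternatives were run, and the limma script was tested on simulated data. It recovered 37 of 67 genes changed 1.5-fold, 56 of 67 changed 2-fold and 60 of 66 changed 4-fold, with 5 of 158 calls false. Far fewer genes changed there than were called here, so these rates need not hold for the data. The members and the 6 gene lists were chosen with earlier results of these data known. All 9 members, from each list the 3 called genes lowest in adjusted p, 8 genes fixed by name and the nearest profile of each member are named by rule; other list members were named after their values were seen. No pair of libraries agreed within sampling noise, so each counted as 1 replicate. Intervals are 95% and rest on 3 libraries a group. Lengths and overlaps between genes come from GENCODE 29, on GRCh38, and promoter windows from RefSeq.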

Additional observations from a re-analysis of the deposited data

How the results depend on the processing

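REV1, POLH, HLTF and USP1 kept their direction and their call in all 21 alternatives. REV3L, POLI, POLK, RAD18 and SHPRH did not in each case. The limma count of 9818 called genes ranged from 8418 with DESeq2 to 10454 with no minimum, and with any 1 library removed from 8965 to 9564. Scaling to library totals moved the median log2 fold change of all tested genes by -0.16 and split the calls into 3555 higher and 6615 lower, against 4806 and 5012. With it 1 member was called higher and 6 lower, as REV3L, POLI and RAD18 (log2 fold change -0.19) joined the lower ones and POLK was lost. The count of members called higher was also 1, for lack of POLK, with no variance trend (adjusted p = 0.120), with DESeq2 and in the authors' deposited table. When 1 library was left out, 1 to 2 members were called higher and 3 to 5 lower. RAD18, never called apart from library totals, changed sign to 0.0305 with upper-quartile scaling and ranged from -0.0503 to 0.0315 with 1 library left out, and SHPRH from -0.39 to 0.0611. For these changes the cause was not tested. Same-numbered libraries had residual correlations of 0.008, 0.071 and 0.027, so the numbers were not taken to pair them. A fit with a replicate block called 10155 genes, with 2 members higher and 4 lower, the added gene being REV3L (-0.20, adjusted p = 0.0339). Settings for the list genes were added after seeing the data. Members were read by 134 to 2582 reads per library, fewest for POLI, and what sets the width of each interval was not tested.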

Other observations

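POLH is also known as a target of p53, the damage-responsive transcription factor that HT-1080 cells carry in unmutated form. Of 9 other p53 targets, 3 were higher and 4 lower in limma, with a median log2 fold change of -0.01. Over all genes tested 29.2% were higher and 30.4% lower, with a median of -0.02. CDKN1A, which halts the cell cycle, had 3140 ± 205 normalized counts in PhenDC3 and 2040 ± 96.2 in DMSO (limma adjusted p = 7.29e-08). TP53INP1 and BBC3, which act in cell death, were 1.78 and 1.71 times their DMSO mean. DDB2, a damage-recognition gene of nucleotide excision repair, had 397 ± 23.3 normalized counts in PhenDC3 and 945 ± 37.6 in DMSO (limma adjusted p = 2.45e-11), and FDXR, SESN1 and ZMAT3 were also lower. MDM2, the p53 inhibitor, was at 2198 ± 149 and 2195 ± 150 normalized counts in PhenDC3 and DMSO and was not called (limma adjusted p = 0.980), and neither was XPC.

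The S phase list held genes lower by as little as CDT1, at 0.742 of its DMSO mean, and as much as RRM2. CCNE1, cyclin E1, which drives entry into S phase, had 214 ± 32.5 normalized counts in PhenDC3 and 135 ± 16.0 in DMSO (limma adjusted p = 0.000148).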
